A study of Rattus norvegicus with 8 samples.

Results

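The 9 genes described here encode proteins that start, carry forward or restrain blood clotting, or that govern the dissolution of fibrin: F3, F5, F7, F10, F13a1, Thbd, Plau, Plaur and Serpinb2. They were taken by gene symbol from a table of 23487 genes. The list was chosen with earlier results of these data known, so its patterns are not independent support. All 9 symbols were listed, and 6 of them (F5, F13a1, Thbd, Plau, Plaur and Serpinb2) had enough counts to be tested for a difference between the groups. The data were RNA-seq counts of macrophages sorted by flow cytometry from the peritoneal cavity of Wistar rats aged 8 weeks. One group of 4 rats (rats 3, 5, 10 and 11) had been injected intraperitoneally with CNT-7, the needle-like multi-walled carbon nanotube MWCNT-XNRI-7, and the other 4 rats (rats 1, 2, 12 and 13) with CNT-T, a tangled carbon nanotube. In both groups the cells were collected 15 days after injection, so every rat carried nanotubes, and macrophages of untreated rats were not analysed here. According to the study's methods, macrophages in this model are recognised as cells with high CD11b/c and dim His48 staining. Each sample is the sort of 1 rat.

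Coagulation is a cascade of proteases. Tissue factor (F3) on a cell surface binds factor VII (F7), the complex activates factor X (F10), and activated factor X joins its cofactor factor V (F5) to turn prothrombin into thrombin, which makes fibrin that factor XIII (F13a1) cross-links. Thrombomodulin (Thbd) captures thrombin and redirects it to activate protein C, which then inactivates factor V. Fibrin is dissolved by plasmin, which urokinase (Plau), bound to its receptor (Plaur), releases from plasminogen, while the plasminogen activator inhibitor PAI-2 (Serpinb2) blocks urokinase. Peritoneal macrophages are known to make several of these proteins themselves, and fibrin deposition in the cavity accompanies peritoneal inflammation.

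Of the 6 members tested, Serpinb2 and Plau were higher after CNT-7 and F13a1, Thbd and F5 were lower, and Plaur was not called in either direction. These calls used edgeR's quasi-likelihood test across 12124 genes with a Benjamini-Hochberg adjusted p under 0.1. In such sorted bulk samples, fewer cells that express a gene and less of its RNA per cell cannot be told apart. By the same rule 13.9% of all tested genes were higher after CNT-7, 14.0% were lower and 27.9% were called in either direction. In 5 members, the called ones, the 4 CNT-7 rats did not overlap the 4 CNT-T rats, which held for 24.9% of all tested genes. The log2 fold changes of the 6 members, CNT-7 over CNT-T here and throughout, ran from -2.15 to 4.99 with a median of -0.47, against a median of 0.0083 over all tested genes. In the text, rose and fell mean higher and lower after CNT-7 than after CNT-T, as no untreated group was analysed. The middle of the table was narrow by comparison: the 10th and 90th percentiles of the log2 fold change lay at -0.51 and 0.53. The percentile of each tested member among all tested genes, from the lowest to the highest log2 fold change, was 0.371 for F13a1, 0.511 for Thbd, 4.59 for F5, 45.2 for Plaur, 98.5 for Plau and 99.8 for Serpinb2. Together the 9 genes took 0.195 to 0.226% of all counts in the CNT-7 rats and 0.358 to 0.408% in the CNT-T rats. F5 held the most of these counts in every rat, so the share does not describe each member.

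**Figure D1:**
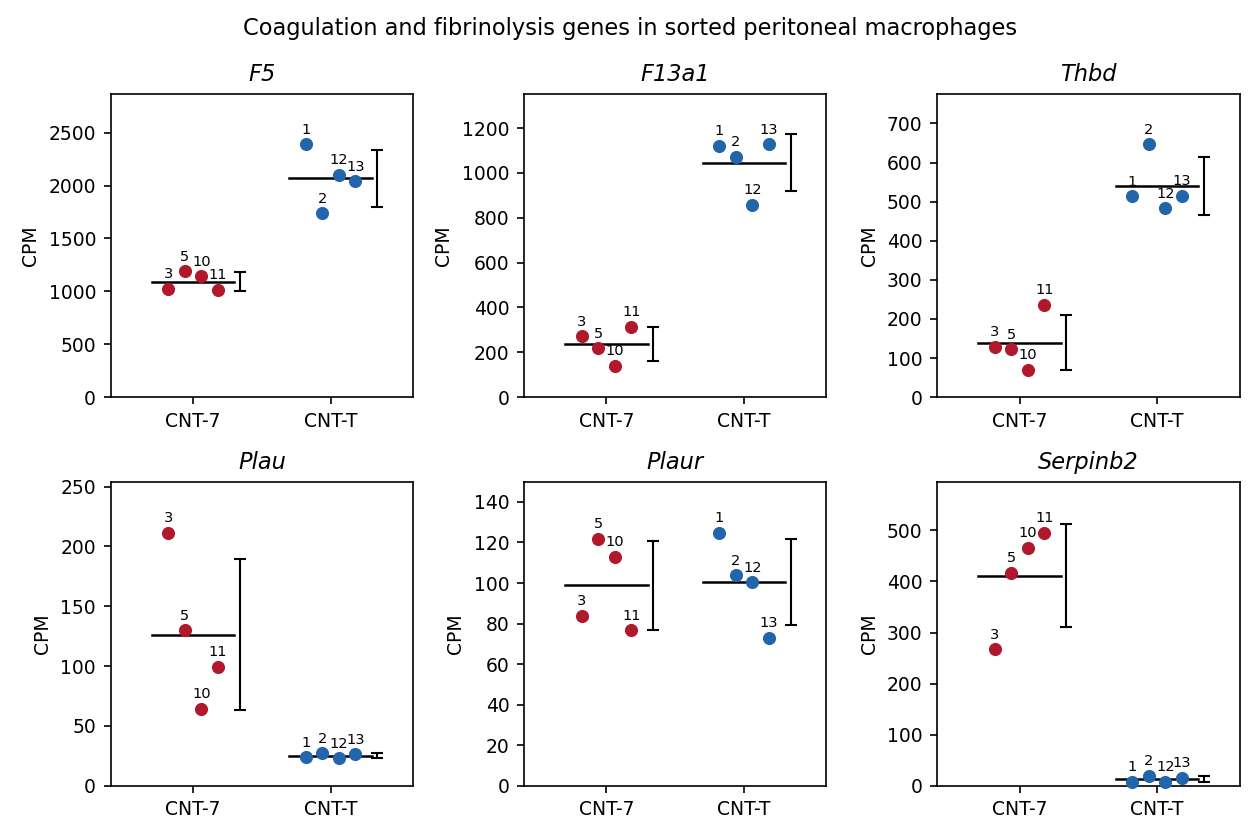
Level of each tested member in every rat, in CPM (counts scaled to 1000000 per library, on linear axes starting at 0), with CNT-7 and CNT-T rats side by side; points are rats, the line is the mean and the bar 1 SD (n = 4). Serpinb2 and Plau sit higher in all CNT-7 rats, F13a1, Thbd and F5 sit lower, and the Plaur points of both groups share 1 range.

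The promoters of the members show the sequence from which each of these transcripts starts. RefSeq promoter sequences on the rat build GRCr8 were matched by symbol for 7 of the 9 members, F3 and Thbd being without a match. The counts themselves were made against transcripts of the older build Rnor_6.0, so these coordinates belong to GRCr8 only. The 4 called members with a match and Plaur, the uncalled one, are printed below as the 250 bases before the transcription start, 5′ to 3′ on the strand of the gene. Capitals mark matches to any of 4 short motifs searched on both strands. They are TATAAA (the TATA box) and TGANTCA (a loose form of the AP-1 site, N being any base). AGATAA or TGATAA (the GATA site) and GAGGAA (the core of the PU.1 site) were also searched. The stretches lie at chr13:79046407-79046656 (plus strand) for F5, chr17:28020947-28021196 (plus) for F13a1, chr15:3511988-3512237 (minus) for Plau, chr1:89181113-89181362 (plus) for Plaur and chr13:24055771-24056020 (plus) for Serpinb2.
F5: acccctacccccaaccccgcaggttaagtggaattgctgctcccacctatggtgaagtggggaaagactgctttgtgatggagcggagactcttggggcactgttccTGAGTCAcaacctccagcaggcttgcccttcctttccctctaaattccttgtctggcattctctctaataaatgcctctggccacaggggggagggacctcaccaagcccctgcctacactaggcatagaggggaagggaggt
F13a1: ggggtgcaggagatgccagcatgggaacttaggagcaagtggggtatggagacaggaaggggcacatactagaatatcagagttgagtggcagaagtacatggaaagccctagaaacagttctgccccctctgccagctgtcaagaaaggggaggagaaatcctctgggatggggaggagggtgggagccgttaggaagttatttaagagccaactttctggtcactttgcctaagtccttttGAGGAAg
Plau: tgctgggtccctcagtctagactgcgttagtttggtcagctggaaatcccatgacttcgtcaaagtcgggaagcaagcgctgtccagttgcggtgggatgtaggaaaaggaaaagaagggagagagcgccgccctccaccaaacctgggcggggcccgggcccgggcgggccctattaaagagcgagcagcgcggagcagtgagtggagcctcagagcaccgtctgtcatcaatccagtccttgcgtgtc
Plaur: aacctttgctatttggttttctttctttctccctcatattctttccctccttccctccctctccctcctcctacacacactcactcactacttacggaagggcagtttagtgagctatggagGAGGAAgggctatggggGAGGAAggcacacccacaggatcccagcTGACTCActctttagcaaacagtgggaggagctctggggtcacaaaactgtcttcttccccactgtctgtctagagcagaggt
Serpinb2: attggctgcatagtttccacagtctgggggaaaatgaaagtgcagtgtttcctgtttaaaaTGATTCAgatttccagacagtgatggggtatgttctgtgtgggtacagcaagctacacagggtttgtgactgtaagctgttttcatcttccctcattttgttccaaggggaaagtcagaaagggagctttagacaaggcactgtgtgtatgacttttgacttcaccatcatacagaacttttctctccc

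The letters TGANTCA were found in F5 (TGAGTCA, bases -143 to -137, counted from the start), Plaur (TGACTCA, -83 to -77) and Serpinb2 (TGATTCA, -189 to -183). The AP-1 site has G or C in the middle, which the Serpinb2 match lacks. Thus the loose motif stood in 1 member that fell, 1 that rose and the 1 that was not called. GAGGAA stood in F13a1 (-7 to -2) and at 2 places in Plaur (-128 to -123 and -111 to -106), and the Plau window held none of the 4 motifs. Over windows of 250 bases before to 50 after the start, 7.33% of all 33469 promoters of the table held TGANTCA and 27.6% held GAGGAA. The TATA box and GATA letters, held by 14.2% and 18.9% of all promoters, were not found in these 5 windows. These are matches of letters, and binding at them was not measured.

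The initiating proteins, tissue factor and factor VII, left almost no trace in these libraries. F3 (ENSRNOG00000011800), the cell surface trigger of clotting, had 0 counts in all 8 rats. With 3 counts as the limit a count of 0 allows, this bounds its level at 0.0887 to 0.109 CPM, depending on the depth of the library and for counting error only. F7 (ENSRNOG00000032737), the protease that tissue factor binds, had 9, 4, 1 and 1 counts in CNT-7 rats 3, 5, 10 and 11 and 0 in the 4 CNT-T rats. All of its 15 counts therefore came from CNT-7 rats, but too few for the filter on low counts. Without that filter F7 passed the threshold in the edgeR quasi-likelihood test (adjusted p = 0.056), a call that rests on these 15 counts. Tfpi (tissue factor pathway inhibitor), which blocks the complex of both proteins, averaged 14.3 ± 1.15 CPM in the CNT-7 group and 17.7 ± 3.20 CPM in the CNT-T group (mean ± SD, n = 4), and was not called in the same edgeR test (log2 fold change -0.30, 95% interval -0.61 to 0.00034, adjusted p = 0.15). Without CNT-T rat 1 the Tfpi difference passed the threshold (adjusted p = 0.026).

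Among the factors of the common pathway, the cofactor F5 was lower after CNT-7, while the protease F10 was too rare to test. F5 (ENSRNOG00000057855) stood at 1024, 1191, 1143 and 1015 CPM in CNT-7 rats 3, 5, 10 and 11 and at 2392, 1738, 2101 and 2042 CPM in CNT-T rats 1, 2, 12 and 13. Every CNT-7 rat was below every CNT-T rat, and the spread within each group was small, with a coefficient of variation of 8.00% after CNT-7 and 13% after CNT-T. F5 fell 1.89-fold, the mean of the CNT-T rats being 2068 ± 268 CPM and that of the CNT-7 rats 1093 ± 87.4 CPM (log2 fold change -0.92 ± 0.11 SE, edgeR adjusted p = 0.00070). F10 (ENSRNOG00000033444) had 27, 8, 0 and 53 counts in CNT-7 rats 3, 5, 10 and 11 and 2, 9, 0 and 2 in CNT-T rats 1, 2, 12 and 13. Both groups held a rat without any count, and most of the 101 counts came from CNT-7 rats 3 and 11. Without the filter F10 did not pass the threshold (edgeR adjusted p = 0.13). Prothrombin (F2), the substrate of factors V and X, had 1 count in all 8 rats together. F8, the cofactor related to factor V that was named here after its values were seen, was close to equal in both groups (68.6 ± 11.4 and 67.2 ± 12.6 CPM, log2 fold change 0.029, edgeR adjusted p = 0.92).

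The proteins that help clotting factors to mature and leave the cell moved little. Lman1, a cargo receptor that carries factors V and VIII out of the endoplasmic reticulum, was lower after CNT-7 by a small amount (log2 fold change -0.18 ± 0.067 SE, edgeR adjusted p = 0.084) and its groups overlapped. That call was lost when CNT-7 rat 3, 5 or 11 or CNT-T rat 1, 2 or 12 was left out (adjusted p of 0.21, 0.17, 0.14, 0.14, 0.14 and 0.18). Ggcx, the vitamin K dependent enzyme that modifies factors VII and X, was not called (log2 fold change -0.11, edgeR adjusted p = 0.57). Vkorc1, which regenerates the vitamin K used by Ggcx, was not called either (log2 fold change -0.23, edgeR adjusted p = 0.18). Without CNT-T rat 13 Vkorc1 passed the threshold (adjusted p = 0.042).

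The A subunit of factor XIII, the transglutaminase that cross-links fibrin and that macrophages are known to hold, was among the genes that fell most. F13a1 (ENSRNOG00000015957) was at 272, 218, 140 and 314 CPM in CNT-7 rats 3, 5, 10 and 11 and at 1122, 1072, 859 and 1129 CPM in CNT-T rats 1, 2, 12 and 13. The highest CNT-7 rat was far below the lowest CNT-T rat, and rat 10 was the lowest of all. F13a1 was 4.43-fold lower, at 236 ± 75.1 CPM after CNT-7 against 1045 ± 127 CPM after CNT-T (log2 fold change -2.15 ± 0.22 SE, 95% interval -2.65 to -1.64, edgeR adjusted p = 0.00039). Its enzymatic relative Tgm2, tissue transglutaminase, went the opposite way. Tgm2 stood at 3215, 5434, 9514 and 3044 CPM in the CNT-7 rats, in the order used above, and at 149, 530, 273 and 301 CPM in the CNT-T rats. It rose 16.9-fold (log2 fold change 4.08 ± 0.49 SE, edgeR adjusted p = 0.00072), with rat 10 the highest. The 3 fibrinogen chains Fga, Fgb and Fgg, whose product both enzymes can cross-link, were at 0 counts in all 8 rats.

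Thrombomodulin, the member that turns thrombin into an anticoagulant, was lower in CNT-7 rats. Thbd (ENSRNOG00000004687) was at 129, 123, 70.3 and 236 CPM in CNT-7 rats 3, 5, 10 and 11 and at 514, 647, 483 and 515 CPM in CNT-T rats 1, 2, 12 and 13. The groups did not overlap, and CNT-7 rats 10 and 11 marked the lowest and highest ends of their group, as they did for F13a1. Thbd fell 3.86-fold (log2 fold change -1.95 ± 0.31 SE, 95% interval -2.64 to -1.26, edgeR adjusted p = 0.0025). Relative to its mean, it varied more after CNT-7 (coefficient of variation 49.7%) than after CNT-T (13.5%), a difference in spread that was not tested.

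The partners of thrombomodulin in the protein C system did not share 1 direction. Procr, the endothelial protein C receptor, which presents protein C to thrombomodulin, was barely detected at 0.756, 0.972, 1.73 and 0.796 CPM in the CNT-7 rats and 0.619, 0.532, 0.330 and 0.179 CPM in the CNT-T rats. It was called higher after CNT-7 (log2 fold change 1.34 ± 0.42 SE, edgeR adjusted p = 0.052), and it passed the filter through the counts of the CNT-7 rats, which were the higher group. The call was lost without CNT-7 rat 10, CNT-T rat 12 or CNT-T rat 13 (adjusted p of 0.14, 0.13 and 0.10). Pros1, protein S, the cofactor of activated protein C and a bridge to apoptotic cells, was lower (55.4 ± 3.73 against 79.9 ± 9.46 CPM, log2 fold change -0.53 ± 0.093 SE, edgeR adjusted p = 0.0041). Protein C itself (Proc) had 0 counts in every rat.

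The plasminogen activator urokinase was higher after CNT-7, and its receptor was not called. Plau (ENSRNOG00000010516) was at 212, 130.0, 64.2 and 99.5 CPM in CNT-7 rats 3, 5, 10 and 11 and at 24.0, 27.1, 23.1 and 26.2 CPM in CNT-T rats 1, 2, 12 and 13. The groups did not overlap, but the CNT-7 rats were spread over a wide range with rat 3 at its top and rat 10 at its bottom, while the CNT-T rats were nearly equal (coefficient of variation 49.8% against 7.38%). Plau was 5.03-fold higher, at 126 ± 62.9 CPM after CNT-7 against 25.1 ± 1.85 CPM after CNT-T (log2 fold change 2.33 ± 0.31 SE, 95% interval 1.64 to 3.02, edgeR adjusted p = 0.0011).

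Plaur (ENSRNOG00000037931), the membrane-anchored receptor that holds urokinase at the cell surface, was at 83.8, 122, 113 and 76.8 CPM in CNT-7 rats 3, 5, 10 and 11 and at 125, 104, 100.3 and 72.9 CPM in CNT-T rats 1, 2, 12 and 13. The lowest and the highest of the 8 values both belonged to CNT-T rats, so that the CNT-7 rats lay within their range. The log2 fold change was -0.024 ± 0.19 SE (edgeR adjusted p = 0.95), and its 95% interval of -0.44 to 0.39 leaves room for modest differences in either direction.

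PAI-2, an inhibitor of urokinase that macrophages keep largely inside the cell, had the largest change of the 9 genes. Serpinb2 (ENSRNOG00000002460) was at 268, 417, 466 and 496 CPM in CNT-7 rats 3, 5, 10 and 11 and at 8.05, 19.8, 7.85 and 15.9 CPM in CNT-T rats 1, 2, 12 and 13. The lowest CNT-7 rat was many times above the highest CNT-T rat. Serpinb2 was 31.8-fold higher, at 412 ± 101 CPM after CNT-7 against 12.9 ± 5.95 CPM after CNT-T (log2 fold change 4.99 ± 0.36 SE, 95% interval 4.19 to 5.80, edgeR adjusted p = 8.1e-05). Within CNT-7 the order differed from that of Plau, since rat 3 was the highest for Plau and the lowest for Serpinb2.

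Further along, plasmin itself is inhibited. Serpinf2, alpha-2-antiplasmin, was low in both groups (1.32 ± 0.225 and 0.716 ± 0.192 CPM) and was called higher (log2 fold change 0.88 ± 0.28 SE, edgeR adjusted p = 0.052). That call was lost without CNT-7 rat 3, CNT-7 rat 5 or CNT-T rat 12 (adjusted p of 0.12, 0.13 and 0.12). Serpine2, protease nexin-1, had 1 count in all.

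The substrate and the second activator of this system were at the limit of detection. Plasminogen (Plg), a product of the liver, had 0 counts in every rat. Plat, tissue plasminogen activator, had 12, 13, 3 and 5 counts in CNT-7 rats 3, 5, 10 and 11, and 1 count in all 4 CNT-T rats together, in rat 2. Of the proteins that hold plasminogen at the cell surface, Eno1, better known as a glycolytic enzyme, was called higher (log2 fold change 0.25 ± 0.097 SE, edgeR adjusted p = 0.099) with overlapping groups. This small difference lost its call without CNT-7 rat 3, 10 or 11 or CNT-T rat 1, 12 or 13 (adjusted p of 0.16, 0.21, 0.11, 0.15, 0.22 and 0.20).

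Thrombin also acts on cells, through receptors that it cleaves. F2rl2 (PAR3), which can serve as a cofactor for thrombin cleavage of other receptors, was at 77.2, 83.6, 125 and 125 CPM in the CNT-7 rats and at 190, 149, 188 and 235 CPM in the CNT-T rats. The groups did not overlap, and F2rl2 fell 1.86-fold (log2 fold change -0.89 ± 0.19 SE, edgeR adjusted p = 0.0092). F2r (PAR1), the main thrombin receptor of many cells, and F2rl1 (PAR2), which factor X and factor VII can cleave, were near 1 CPM or below and were not called (log2 fold changes -0.24 and 0.17, adjusted p of 0.56 and 0.87).

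**Figure D2:**
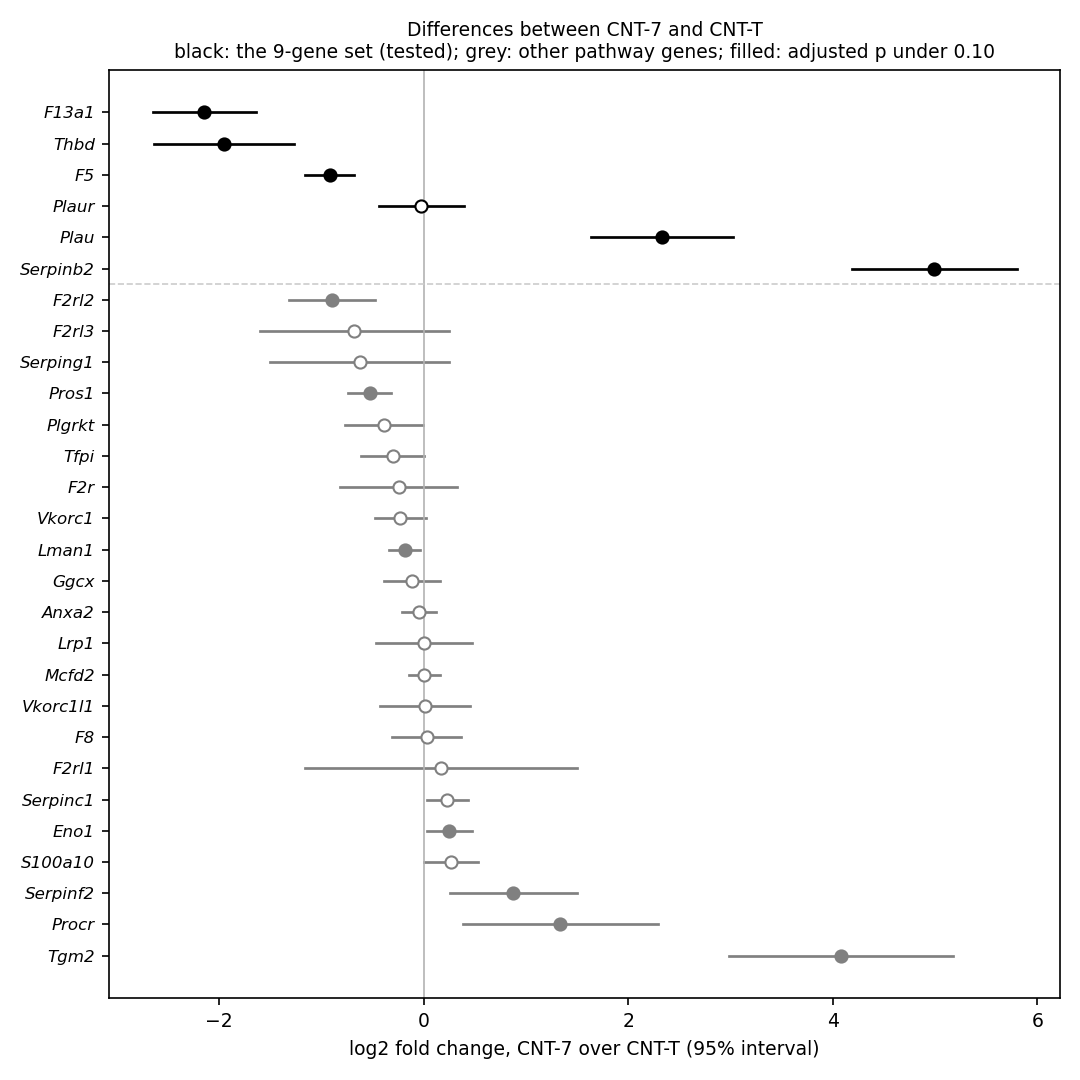
Log2 fold change, CNT-7 over CNT-T, with its 95% interval, for the tested members (black) and the tested genes of the wider coagulation and fibrinolysis list (grey); filled points passed an adjusted p under 0.1 in the edgeR quasi-likelihood test on 4 against 4 rats. Serpinb2, Tgm2 and Plau lie furthest above 0, F13a1 and Thbd furthest below.

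Beyond the 9 members, a wider list of 45 coagulation and fibrinolysis genes was read from the same fit. Of its 44 listed genes, 22 passed the filter and 22 did not, and 13 of the latter had 0 counts in all rats. Of the tested genes, 4 were higher after CNT-7 (Tgm2, Procr, Serpinf2 and Eno1), 3 were lower (F2rl2, Pros1 and Lman1) and 15 were not called. The 7 called of 22 were near the background, since 27.9% of all tested genes were called in either direction, 13.9% higher and 14.0% lower. Its tested genes had a median log2 fold change of -0.020, beside 0.0083 for all tested genes. By role, 2 genes listed with the procoagulant factors were tested. The clotting factor F8 was not called. Tgm2, a transglutaminase and not itself a clotting factor, was higher, with the largest log2 fold change of the list (4.08). The 1 tested contact system gene was not called. The 1 tested fibrinolysis inhibitor and 1 of 5 tested genes of the plasminogen system were higher. Among the coagulation inhibitors 1 of 4 was higher and 1 of 4 lower, among the thrombin receptors 1 of 4 was lower, and among the processing and export genes 1 of 5 was lower. Leaving out single rats moved the number called higher to between 1 and 5, with 1 without CNT-T rat 12 and 2 without CNT-7 rat 3, CNT-7 rat 10 or CNT-T rat 13.

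**Figure D3:**
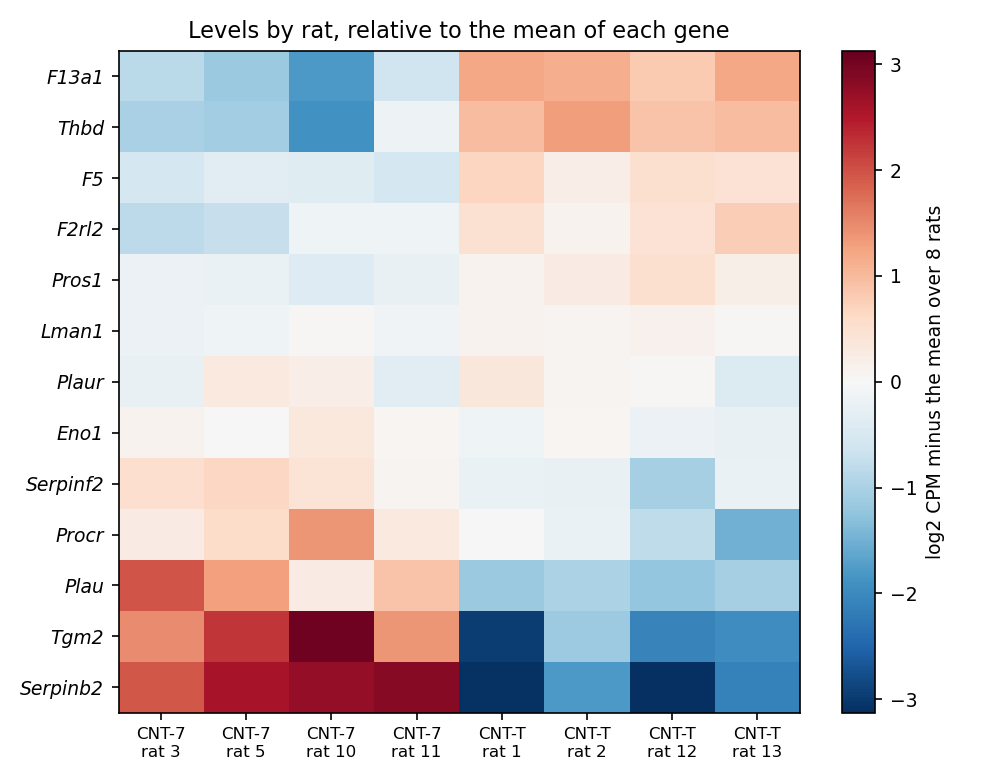
Colour map of log2 CPM (prior count 2) minus the mean of the gene over all 8 rats, with 1 column per rat and 1 row for each tested member and each called gene of the wider list. Red is above and blue below the mean of the gene; the first 4 columns are CNT-7 rats, in which F13a1, Thbd and F5 lie below their means and Plau, Tgm2 and Serpinb2 above.

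Read by rat, CNT-7 rat 10 combined the lowest F13a1, Thbd and Plau of its group with the highest Tgm2 and Procr. CNT-7 rat 11 held the highest F13a1, Thbd and Serpinb2 of the CNT-7 group. CNT-7 rat 3 held the highest Plau and the lowest Serpinb2 of its group. With 4 rats a group these orders are given as a description.

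Ratios within a rat set an activator or receptor beside its partner without reference to the rest of the library. Gene lengths were not used, so only differences of a ratio between rats can be read, not its sign. The log2 ratio of Plau to its receptor Plaur was 1.33, 0.094, -0.81 and 0.37 in CNT-7 rats 3, 5, 10 and 11 and -2.37, -1.94, -2.12 and -1.48 in CNT-T rats 1, 2, 12 and 13. Every CNT-7 rat had the higher ratio, and the means differed by 2.22. The log2 ratio of Plau to its inhibitor Serpinb2 went the other way, at -0.34, -1.68, -2.86 and -2.32 in the CNT-7 rats and 1.57, 0.45, 1.55 and 0.71 in the CNT-T rats. Here the CNT-7 rats were all below, and the means differed by -2.87. Thus activator transcripts were more plentiful per receptor transcript and less plentiful per inhibitor transcript in CNT-7 rats. The log2 ratio of Thbd to Procr was 6.89 ± 1.18 after CNT-7 and 10.2 ± 0.61 after CNT-T (SD, n = 4), again without overlap. Procr was barely detected, however, and passed the filter through the CNT-7 rats. Its call was lost without single rats, so this ratio rests on few Procr counts. No test was run on these ratios, which follow from the values above.

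**Figure D4:**
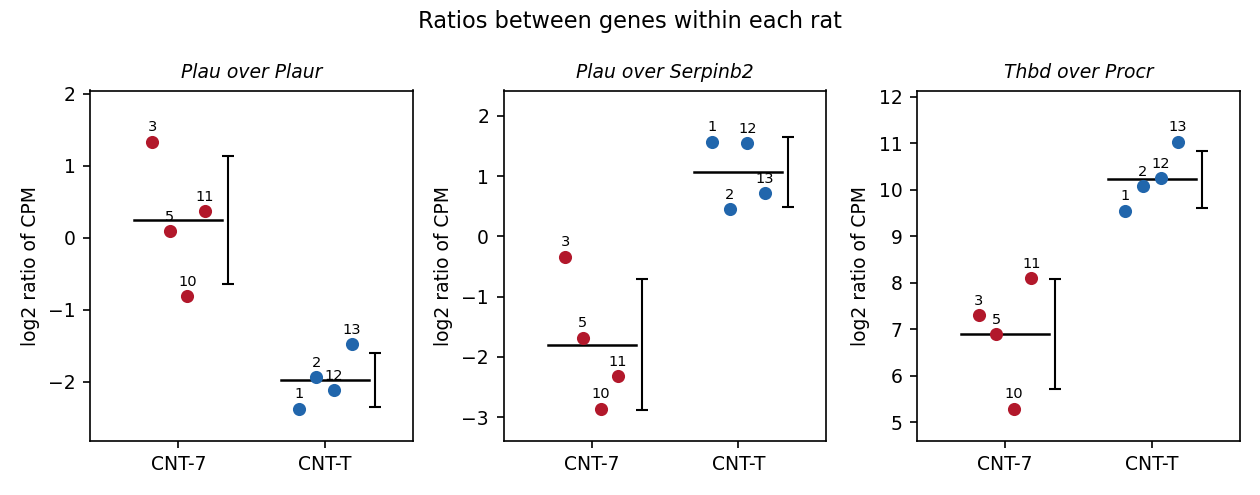
Log2 ratio of CPM (prior count 2) within each rat for Plau over Plaur, Plau over Serpinb2 and Thbd over Procr; points are rats, the line is the mean and the bar 1 SD (n = 4). CNT-7 rats lie above CNT-T rats for Plau over Plaur and below them for both other ratios. Procr was barely detected, so the last ratio rests on few counts.

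For the 3 called members with the largest fold changes, the tested genes most like them over the 8 rats were found by the root mean square difference of log2 CPM after centring each gene. Serpinb2 was closest to Xpnpep2 (0.38, a membrane aminopeptidase), Sdc1 (0.45, the heparan sulfate proteoglycan syndecan-1) and LOC100909595 (0.51). Plau was closest to Marcks (0.27, a substrate of protein kinase C), Coro2a (0.28, of the actin-binding coronin family) and Suox (0.30, sulfite oxidase). F13a1 was closest to RGD1565410 (0.19), Slc16a10 (0.20, an aromatic amino acid transporter) and Thbd (0.23). Another member was thus among the nearest 3 genes of F13a1, out of the 12124 tested genes. The likeness includes the difference between the groups and is a description over 8 rats.

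Because several members are also made by other cells, markers of cells that could be in the sort were read in the same libraries. The markers of macrophages were present in all rats, with summed levels of 15140 to 22281 CPM in CNT-7 rats and 23524 to 33707 CPM in CNT-T rats, most of it Lyz2, and without Lyz2 of 2523 to 2944 and 2996 to 3608 CPM. Of these 8 markers Cd14 and Gata6 were higher after CNT-7, Csf1r, Cd68 and Adgre1 were lower, and Mertk, Lyz2 and Mrc1 were not called. The summed level was lower after CNT-7, as were F5, F13a1 and Thbd, and a link between them was not tested. Platelets hold factor V and the A subunit of factor XIII. Their 9 markers summed to 185 to 414 CPM in CNT-7 rats and 470 to 722 CPM in CNT-T rats, nearly all of it Pf4, which was lower after CNT-7 (290 ± 96.8 against 571 ± 108 CPM, edgeR adjusted p = 0.015). Without Pf4 the platelet markers summed to 1.52 to 2.60 and 1.86 to 3.26 CPM. Of these, Itga2b and Tubb1 were tested and not called (log2 fold changes -0.057 and -0.76). Ppbp, Gp6 and Treml1 were detected with too few counts to test, and Gp9, Gp1ba and Gp1bb had 0 counts in all 8 rats. Endothelial cells are a known source of thrombomodulin, and the 6 endothelial markers summed to 213 to 221 CPM in CNT-7 rats and 206 to 247 CPM in CNT-T rats, with Tie1 the largest and Emcn at 0. Without Tie1 the groups did not overlap, with 54.3 to 71.4 CPM in CNT-7 rats and 75.9 to 100.3 CPM in CNT-T rats. The endothelial markers did not share 1 direction. Tek was lower after CNT-7 (19.1 ± 6.35 against 38.7 ± 6.09 CPM, log2 fold change -1.02 ± 0.22 SE, edgeR adjusted p = 0.010). Cdh5, Esam and Tie1 were not called (log2 fold changes 0.66, -0.25 and 0.10). Kdr, too rare to test, had 1, 4, 2 and 10 counts in CNT-7 rats 3, 5, 10 and 11 and 0 in the CNT-T rats. Mesothelial cells make plasminogen activators, and their 9 markers summed to at most 1.01 CPM in any rat, with Upk3b and Wt1 at 0. The neutrophil (3.08 to 9.68 and 6.69 to 11.1 CPM), fibroblast (0.614 to 1.47 and 0.163 to 0.758), mast cell (0.558 to 1.56 and 0.0296 to 2.14), lymphocyte (0.526 to 4.82 and 0.143 to 0.782) and eosinophil lists (0.181 to 9.33 and 0.107 to 0.359) overlapped between the groups in their sums. Within these lists the neutrophil marker S100a8 was lower after CNT-7 (2.24 ± 0.99 against 6.17 ± 2.16 CPM, edgeR adjusted p = 0.016). The neutrophil markers S100a9, Cxcr2 and Elane were not called and did not share 1 direction (log2 fold changes 1.23, 1.26 and -0.68). The fibroblast list without Pdgfra did not overlap (0.397 to 1.24 CPM in CNT-7 rats and 0 to 0.363 CPM in CNT-T rats). The top of the CNT-7 lymphocyte range came from rat 5, the remaining CNT-7 rats being at most at 0.833 CPM. That of the eosinophil range came from rat 3, the remaining CNT-7 rats being at most at 0.670 CPM. The part of other cells in the members' differences was not tested.

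The total counts of the 2 groups were not told apart by the test. The 4 CNT-7 libraries held 27394995 to 30215063 counts and the 4 CNT-T libraries 27195157 to 33732981 (exact permutation test of the difference of means, two-sided, p = 0.29, where the smallest p that 70 divisions of the rats allow is 0.029). Rats of the same group differed by far more than counting error, with a chi-square of 31.6 to 85.6 per degree of freedom, so that no library repeated another.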

How the data were processed

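Macrophages of 4 CNT-7 and 4 CNT-T rats were sorted, and stranded mRNA libraries were sequenced as paired ends. The authors deposited estimated counts per gene, made with Salmon against Ensembl rat transcripts of build Rnor_6.0. These counts were used here rounded to whole numbers. The Salmon version is not given in the sources used here. The table held 23487 genes, of which 6820 had 0 counts in all rats, and library totals were 27195157 to 33732981 counts.

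The counts were analysed in R 4.3.3 with edgeR 4.0.16 (TMM scaling, glmQLFit and glmQLFTest). Genes were kept by filterByExpr (minimum count 10, minimum total 15), which left 12124. P-values were adjusted by the Benjamini-Hochberg method over all tested genes, and calls used an adjusted p under 0.1, as in the study. Standard errors were obtained from the log2 fold change and its F statistic. CPM values are counts per 1000000 of the TMM-scaled library. The test was checked on simulated data. DESeq2 1.42.0, other scalings, filters and thresholds, and leaving out each rat served as alternatives. Each rat is 1 animal, and no rat number occurs in both groups.

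Named genes were the 9 members, the called genes of the wider list, 12 direct partners of members whatever their result, the 3 nearest genes of the 3 called members with the largest log2 fold change, and marker lists of 9 cell types; F8 was added later. One gene of the wider list is not reported here and was left out of its counts. Kng2 of the wider list and the markers Pecam1 and Cd79a were not analysed here. Promoters were read from RefSeq (GRCr8); protein sequences were not used here. The members and lists were chosen with earlier results of these data known, so none of the patterns is independent support.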

Additional observations from a re-analysis of the deposited data

Results flagged for a closer look

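Of 46 sets of 4 rats examined (1 gene, 1 ratio or the total counts, in 1 group), 2 held a rat whose gap to the nearest of the others, divided by the range of the group, exceeded the 95% critical value of Dixon's test, where chance alone gives about 2.3. F8 was high in CNT-7 rat 5, at 85.6 CPM where the remaining rats of its group had 62.3 to 63.7 CPM (gap over range 0.939). Serpinf2 was low in CNT-T rat 12, at 0.429 CPM where the remaining rats had 0.798 to 0.823 CPM (0.936), and its higher call after CNT-7 was lost without that rat (edgeR adjusted p = 0.12). Neither gene is among the 9 members. No rat was flagged for the 6 tested members, and F3, F7 and F10 were not examined.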

How the results depend on the processing

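Of the 9 members, 2 were called higher and 3 lower under the 16 alternatives, with 2 exceptions. Asking for at least a 2-fold change left 2 lower calls, as F5 was lost, and dropping the filter gave 3 higher calls, as F7 was added on 15 counts. Over the alternatives the log2 fold change ranged from -0.996 to -0.84 for F5, -2.32 to -1.96 for F13a1, -2.33 to -1.73 for Thbd, 1.96 to 2.55 for Plau and 4.81 to 5.28 for Serpinb2. The wider list was less stable. Its higher calls numbered 1 with an adjusted p under 0.05, 2 with at least a 2-fold change and 1 to 5 without single rats, and its lower calls numbered 0 with at least a 2-fold change, 5 with the range of the rat numbers (1 to 5 or 10 to 13) as a term and 2 to 4 without single rats. The added lower calls with that term included Tfpi (adjusted p = 0.072). Uncalled genes near 0 changed sign without single rats, the log2 fold change running from -0.15 to 0.097 for Plaur, -0.098 to 0.11 for F8 and -0.22 to 0.33 for F2rl1. Procr and F2rl1 gave no value where at least 10 counts were asked of every rat, nor did F2rl1 without CNT-7 rat 3 or CNT-T rat 12. The cause of these changes was not tested. The depth limits F3, F7, F10 and Plat, which were at or near the limit of detection. No paired analysis was possible because the 2 groups share no rat number.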
